A study of Mus musculus with 10 samples.

Results

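Alveolar type 2 (AT2) cells at homeostasis were selected on measured values from the 2 Confetti libraries: barcodes with at least 1000 genes, at most 50000 UMIs (unique molecular identifiers, each standing for 1 captured transcript) and at most 15% mitochondrial UMIs, with at least 20 UMIs of Sftpc, none of the leukocyte gene Ptprc, and fewer than 2 of the 6 cycling genes Mki67, Top2a, Birc5, Cdk1, Ube2c and Rrm2 detected. The rule kept 7554 cells of 42012 barcodes in the series, 3708 in Confetti RFP and 3846 in Confetti YFP. Of the 8157 Confetti barcodes that passed the quality limits, 92.6% were kept. The others comprised 122 with Ptprc, 290 with fewer than 20 Sftpc UMIs and 191 with 2 or more cycling genes. Because Sftpc, Ptprc and the cycling genes chose the cells, their levels below are descriptions only.

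The lungs came from Sftpc-CreERT2; R26R-Confetti mice, in which 3 doses of tamoxifen at 0.2 mg/gbw switch on a fluorescent reporter in Sftpc-expressing cells, and EpCAM+ cells carrying RFP or YFP were sorted from distal lung. The series also holds 8 libraries of Sftpc-CreERT2; Red2Kras mice given the same tamoxifen, in which RFP marks mutant cells and YFP marks wildtype cells. They were taken 4 days or 2 weeks later, and each combination of colour and time has 2 libraries. In the Confetti mice neither colour marks mutant cells, and each colour is 1 library. The labels give no time for the Confetti libraries, which the study's methods place at 2 weeks. Lungs were pooled within a sample, so no value stands for 1 animal. The study's methods list Confetti as 1 sample with both colours isolated, without stating outright that both came from the same lungs. Agreement between the colours is therefore not replication across animals. Cre was driven from Sftpc, so the reporter marks cells that expressed Sftpc and their descendants. The sorted libraries nonetheless held barcodes with Ptprc, 66 in RFP and 56 in YFP, used below as background. Of these, 52 and 41 had fewer than 20 Sftpc UMIs. The rest held 20 or more, so the set is not free of AT2 transcripts. Shares in barcodes with Ptprc refer to the whole set unless low Sftpc is stated.

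AT2 cells are the surfactant-producing cells of the alveolus. They store surfactant lipid and protein in lamellar bodies, secrete proteins of innate defence such as lysozyme and the collectins SP-A and SP-D, and act as the resident stem cells that renew themselves and give rise to the flat alveolar type 1 (AT1) cells that carry gas exchange. After injury they can pass through intermediate states, among them the IL-1-responsive "primed" state and the keratin-rich damage-associated transient progenitor (DATP) state.

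The AT2 label was set against markers that the rule did not use, although they named the cells and so are no independent check. Cbr2, a carbonyl reductase abundant in mouse lung, had a UMI in 99.5% of RFP and 99.6% of YFP cells, against 42.4% and 44.6% of the barcodes with Ptprc. Chia1, an acidic chitinase, had a UMI in 66.6% and 55.5% of cells against 15.2% and 19.6% of those barcodes, and Cst8, a cystatin, in 37.5% and 30.7% against 7.58% and 3.57%. Epcam, on which the cells were sorted, had a UMI in 59.8% and 45.5%. The median cell held 3990.5 UMIs and 1385 genes in RFP, and 3237 UMIs and 1249 genes in YFP, with a mitochondrial share of 4.22% and 3.75%. Sftpc supplied 503 UMIs to the median RFP cell and 373 to the median YFP cell, far from the limit of 20. Only 6 RFP and 8 YFP cells lay just inside it at 20 to 39 UMIs, and 111 and 170 barcodes lay just outside it at 1 to 19. Barcodes were shared between the Confetti libraries in 7 cases, of which 2 concerned kept cells. Leaving out the cells with the highest doublet scores (118 in RFP, 127 in YFP) left 95 genes that passed the limit on variation used below, against 94 with them. Across the Red2Kras libraries the same rule kept 811 to 3936 cells each, with a median of 4647 to 14024 UMIs, so those cells were more deeply read than the Confetti cells.

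The transcriptome was dominated by a small set of secretory genes. Levels are given as CPM, the UMIs of a gene per 1000000 UMIs summed over the cells of a library (scaled by TMM), and were not divided by gene length since the 3′ assay tags 1 end of each transcript. Sftpc, encoding surfactant protein C, took 12.2% of all UMIs in RFP and 11.1% in YFP, and the 10 most abundant genes together took 29.5% and 27.8%. The 4 surfactant protein genes made up 16.9% and 15.2% of UMIs, ribosomal protein genes 13.5% and 13.1%. Sftpc stood at 117344 in RFP and 98207 in YFP, and Lyz2, encoding lysozyme, ranked next at 50296 and 37177. Sftpa1, encoding the collectin SP-A, came after it at 33163 and 26672. Malat1, a nuclear long noncoding RNA, stood at 23954 and 29276, above Sftpa1 in YFP. Of the further secretory genes, Cxcl15, a lung-restricted chemokine, stood at 12228 and 11204, Sftpb, whose peptide is needed to form lamellar bodies, at 7476 and 7357, and Sftpd, encoding SP-D, at 4413 and 3212. Among the markers that name the cells, Cbr2 stood at 3362 and 3240, Chia1 at 544 and 393, and Cst8 at 151 and 119. Each of these secretory genes was slightly higher in RFP, and Cbr2 was nearly equal in both.

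**Figure D1:**
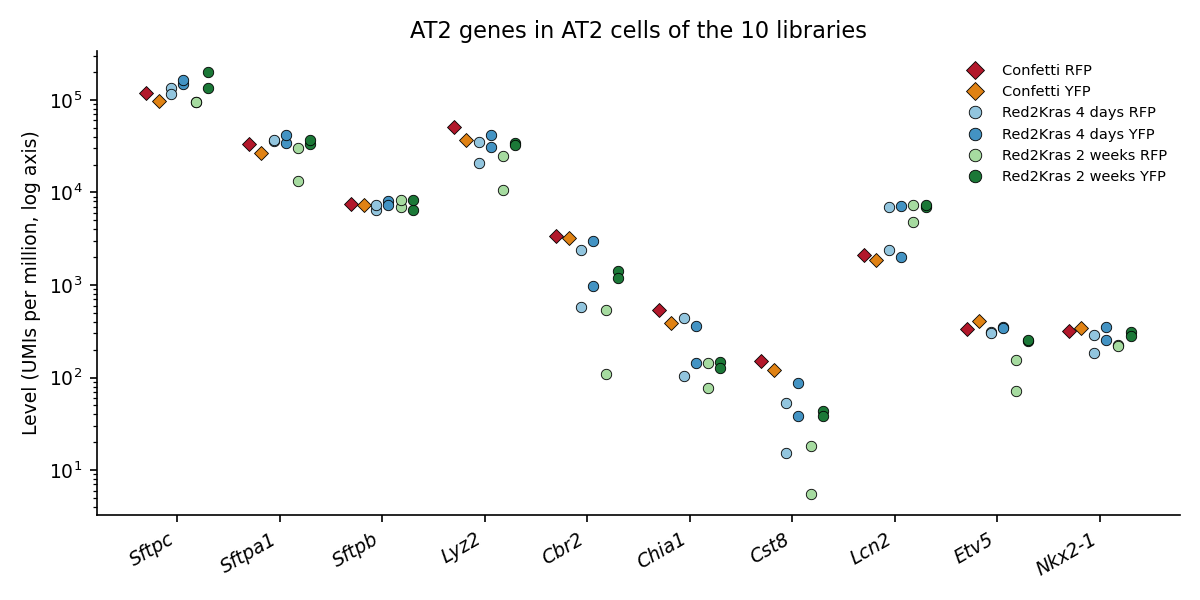
Levels of 10 AT2 genes in cells of the 10 libraries chosen by the same rule, in CPM (UMIs per 1000000) on a log axis, with diamonds for the Confetti libraries, circles for the Red2Kras libraries and 1 point for each library. The Confetti RFP and YFP diamonds lie close together for each gene, from Sftpc at 117344 and 98207 down to Cst8 at 151 and 119.

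Regulators of AT2 identity were present in both libraries, at levels like those of Chia1 and Cst8. Etv5, an ETS factor that maintains AT2 cells, stood at 331 in RFP and 410 in YFP, Nkx2-1, the lung lineage factor, at 321 and 347, and Cebpa at 226 and 243. Of the lipid genes, Scd1, a desaturase of fatty acid synthesis, stood at 3218 and 3157. MHC class II genes, which AT2 cells are known to express, were led by Cd74, the invariant chain, at 6394 and 5595, with H2-Aa at 1074 and 923 and H2-Ab1 at 867 and 755. The lipid transport protein gene Npc2 stood at 6126 and 4827.

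Genes of primed, DATP, AT1 and Wnt-responding states were also detected. Lcn2, encoding the iron-binding protein lipocalin 2, had a UMI in 93.9% (95% exact binomial interval 93.1 to 94.6) of RFP and 93.4% (92.6 to 94.2) of YFP cells, against 30.3% and 30.4% of barcodes with Ptprc. Lrg1 had a UMI in 55.1% and 52.9% of cells, against 24.2% and 10.7%. Nfkbia, an inhibitor and target of NF-κB, was found in 40.6% and 39.3% of cells, below the 56.1% and 53.6% of barcodes with Ptprc. Il1r1, the receptor for IL-1, had a UMI in 7.55% (6.72 to 8.45) of RFP and 6.19% (5.45 to 7.0) of YFP cells at these depths. With every cell reduced to 2000 UMIs the share of cells with an Il1r1 UMI was 3.83% and 3.72%. Without that reduction, the 66 and 56 barcodes with Ptprc gave 3.03% and 3.57%, from 2 barcodes each. These are too few to set the unreduced share in AT2 cells, 7.55% and 6.19%, apart from background. Axin2, a target of Wnt signalling used to mark an AT2 subset, was found in 5.07% and 5.28% of cells, against 1.52% and 0% of those barcodes, of which 1 of 66 and 0 of 56 held a UMI. Tm4sf1, another subset marker, was found in 0.458% and 0.442%, against 1.52% and 3.57% of those barcodes, which are 1 and 2 barcodes, so it cannot be set apart from background. Intervals cover counting error only.

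Among keratins and AT1 genes, Krt18 stood at 307 CPM in RFP and 276 in YFP and Krt8 at 267 and 243, with a Krt8 UMI in 53.1% and 47.0% of cells against 9.09% and 7.14% of barcodes with Ptprc. Ager, a receptor best known from AT1 cells, stood at 812 and 673 and was detected in 89.3% and 83.3% of cells. Areg, encoding the EGFR ligand amphiregulin, was found in 20.5% and 16.6%.

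Markers of other cell types were mostly low. The 14 immune genes summed to 15.3 CPM in RFP and 34.9 in YFP, with Ptprc, by rule, and Marco at 0 in both. The 8 endothelial genes summed to 40.5 and 26.1, the 8 mesenchymal genes to 2.58 and 10.8, and the 7 ciliated genes to 105 in each. The 7 airway secretory genes summed to 2520 and 3419, mostly Scgb1a1, which encodes the club cell secretory protein, and the 4 red blood cell genes to 78.0 and 348. Their part in the results below was not tested.

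The 2 colours gave nearly the same profile. Each colour is 1 library, so no test across replicates was possible and the intervals of ratios are conditional exact intervals for counting error. Of 9661 genes with at least 100 UMIs over both, 96.7% lay within 1.5-fold of each other and 66 (0.683%) were past 2-fold, 5 higher in RFP and 61 higher in YFP. The genes furthest apart included markers of neutrophils and red blood cells. S100a9, a neutrophil calprotectin subunit, had 3 UMIs in RFP and 303 in YFP, a log2 ratio of RFP to YFP of -6.78 (interval -9.07 to -5.22). Its partner S100a8 had 3 and 142 UMIs (-5.69, interval -7.98 to -4.11). The haemoglobin genes Hba-a2 and Hba-a1 differed by -2.42 and -2.38. Actb, encoding β-actin, was 2.05-fold higher in YFP. On the other side, Hpgd, which inactivates prostaglandins, had 95 UMIs in RFP and 34 in YFP (log2 ratio 1.36, interval 0.78 to 1.97). The AT2 genes differed less, with log2 ratios of 0.26 for Sftpc, 0.31 for Sftpa1, 0.44 for Lyz2 and 0.47 for Chia1.

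Variation between cells was measured after reducing each cell to 2000 UMIs, in 3707 RFP and 3841 YFP cells. The Fano factor, the variance over the mean, is 1 where a gene varies by counting alone. Of 3879 genes with a mean of at least 0.05 UMIs in both libraries, the median Fano factor was 1.02 in RFP and 1.03 in YFP, and 94 genes reached 1.5 in both. Over all 3879 genes the Fano factors of the libraries had a Spearman correlation of 0.50, and over the 94, which were chosen for a high value in both, of 0.90. These are descriptions across genes, which are not independent. Under the same measure 56 of these 94 genes also reached 1.5 in each of the 8 Red2Kras libraries.

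Secreted and defence genes were often variable by this measure, against 2.42% of all genes measured. At a given relative spread the Fano factor rises with a gene's mean, and the lists were not matched to all genes by level. How far the counts below reflect abundance was therefore not tested. Of 12 measurable host defence genes, 11 were variable, as were 11 of 19 AT2 surfactant and lamellar body genes, 9 of 16 immediate-early genes and 6 of 8 DATP genes. The host defence and the surfactant lists share the variable genes Lyz2, Sftpa1, Sftpd and Chia1. The counts were lower for sterol and fatty acid synthesis genes, 3 of 21, and detoxification genes, 2 of 22, and 0 of 12 AT2 transcription factors passed, a count too small to set against the share over all genes. Sftpc had a Fano factor of 12.1 in RFP and 11.7 in YFP, and a coefficient of variation beyond counting of 0.21 and 0.22. This coefficient is the square root of the variance less the mean, divided by the mean. Sftpa1 had a coefficient of 0.32 in both and Lyz2 of 0.40 and 0.39. Lcn2 varied more, at 1.04 and 1.07, and Lrg1 more again at 1.74 and 1.68.

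**Figure D2:**
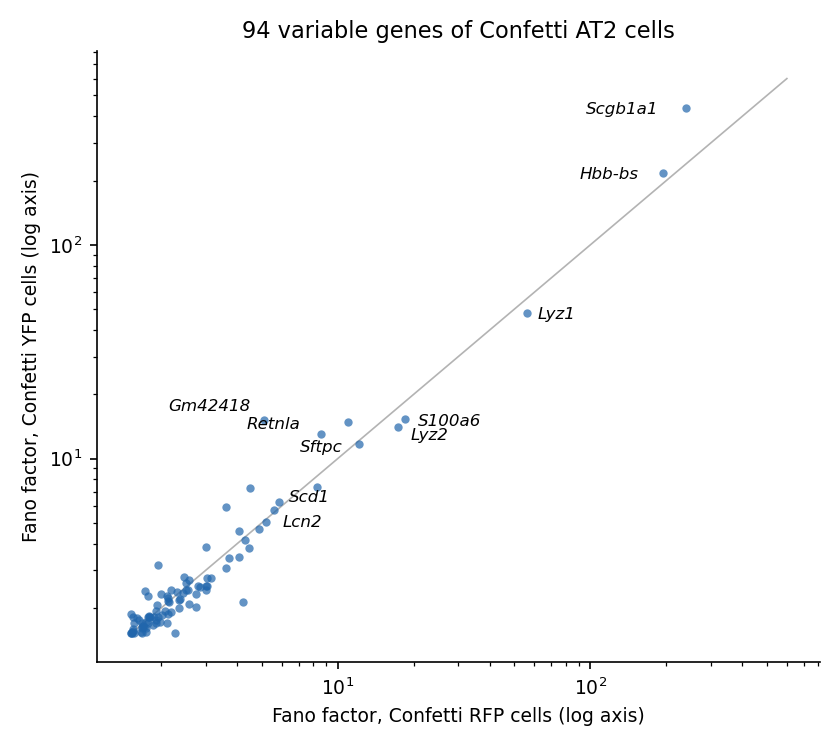
Fano factor of the 94 variable genes in Confetti RFP (horizontal) against Confetti YFP cells (vertical) after reduction to 2000 UMIs, both axes logarithmic, with 1 point for each gene and a line where both are equal. Scgb1a1, Hbb-bs and Lyz1 stand highest in both libraries, and Gm42418 lies off the line at 5.11 in RFP and 15.2 in YFP.

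The 2 highest Fano factors came from genes of other cell types with most of their UMIs in few cells. Scgb1a1 had 238 in RFP and 437 in YFP. A UMI was found in 45.5% and 52.0% of reduced cells, against 38.5% and 26.8% of the barcodes with Ptprc and under 20 Sftpc UMIs, and the top 1% of cells held 55.4% and 62.8% of its UMIs. Hbb-bs, a β-globin gene, had 195 and 218, with 84.7% and 84.5% of its UMIs in the top 1% of cells. S100a6, a calcium-binding protein gene, had 18.5 and 15.3 and was detected in 11.8% and 11.5% of cells. Retnla, encoding a resistin-like secreted protein, had 8.60 and 13.1 and was detected in 8.69% and 7.89%.

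Lyz1 separated AT2 cells into a minority that held it at high level and a majority with none. It encodes the second mouse lysozyme and lies beside Lyz2 on chromosome 10, their start sites 10596 bases apart. Its Fano factor was 56.1 in RFP and 48.1 in YFP. No Lyz1 UMI was seen in 68.6% of RFP and 64.9% of YFP cells, and 10.8% and 14% held 1 to 3. The rest, at 4 or more, were 764 RFP cells (20.6%, 95% exact binomial interval 19.3 to 21.9) and 811 YFP cells (21.1%, 19.8 to 22.4). That limit of 4 was chosen after the values were seen. Among them the median was 39 and 33 UMIs, and they held 98.4% and 97.8% of all Lyz1 UMIs. Of the low-Sftpc barcodes with Ptprc, 0 of 52 and 0 of 41 reached 4 UMIs. Without the cells of highest doublet score the shares were 19.9% and 20.9%.

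**Figure D3:**
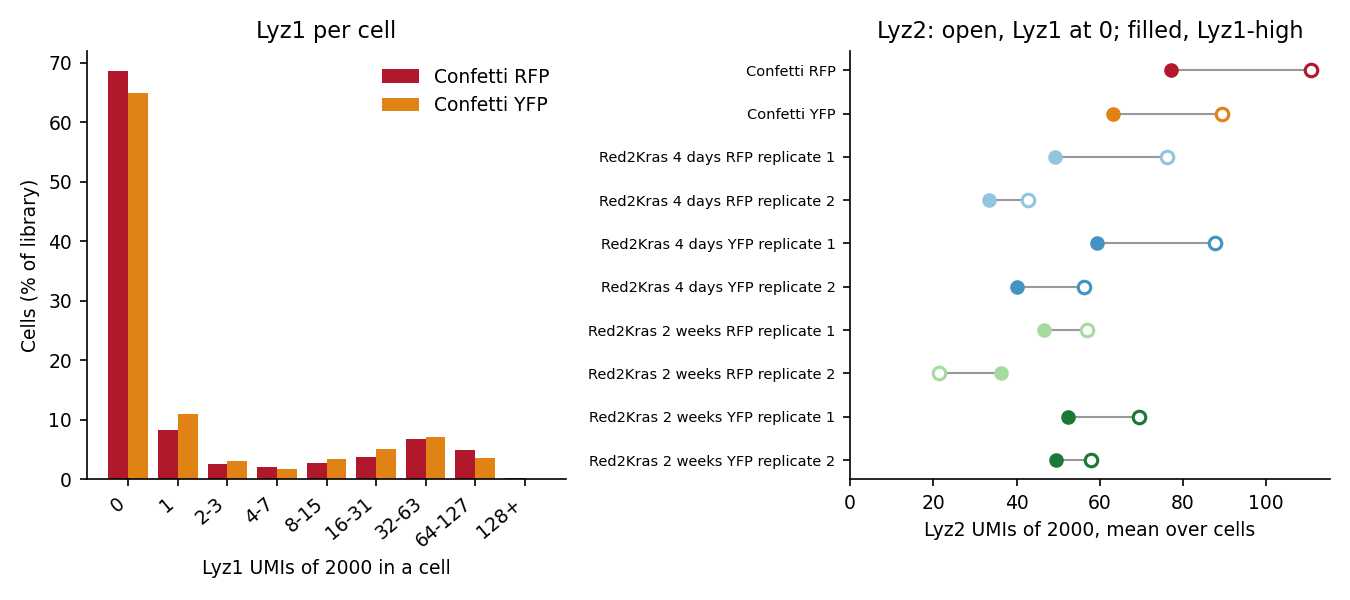
Left, the share of Confetti AT2 cells (percent of the library) by their number of Lyz1 UMIs after reduction to 2000 UMIs, where cells with none form the largest bin (68.6% and 64.9%), the bins of 2 to 3 and 4 to 7 UMIs are low, and 32 to 63 UMIs holds 6.82% and 7.11% of cells. Right, the mean number of Lyz2 UMIs in cells without Lyz1 (open circles) and in cells high in Lyz1 (filled circles) for each of the 10 libraries, with the filled circle lower in all but the second replicate of 2 weeks RFP.

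Lyz2 was lower where Lyz1 was high. Cells high in Lyz1 averaged 77.1 Lyz2 UMIs in RFP against 110.8 in cells without Lyz1, and 63.1 against 89.4 in YFP, ratios of 0.696 and 0.706. The sum of both lysozymes in the high cells was 120.9 and 101.4 UMIs, and Lyz1 exceeded Lyz2 in 26.0% and 26.4% of these cells. Their depth before reduction was much the same, a median of 4074.5 against 3983.5 UMIs in RFP and 3275 against 3234 in YFP. Lyz1 and Lyz2 are near-identical copies, so the authors' counting could have split or dropped reads that match both, and these values are uncertain to that extent. Of 3878 other genes compared between cells with high and with no Lyz1, 0 differed by more than 1.5-fold in the same direction in both libraries, and the strongest after Lyz2 itself (log2 difference -0.52 and -0.50) was Krt19, at -0.47 and -0.45. Sftpc averaged 243.7 against 245.3 UMIs in RFP and 224.2 against 221.4 in YFP, and Sftpa1 70.1 against 68.4 and 62.0 against 59.5.

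Cells with high Lyz1 were found in every Red2Kras library, at 3.90% to 19.1% of cells. The Lyz2 ratio was 0.647 to 0.854 in 7 of the 8 libraries and 1.70 in the other, the second replicate of 2 weeks RFP. The direction of the Lyz2 difference was therefore shared by 9 of the 10 libraries.

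Since Lyz1 and Lyz2 went opposite ways over cells, the 250 bases before each RefSeq start (GRCm38.p6) are shown for comparison, both on the minus strand, Lyz1 at chr10:117292869-117293118 and Lyz2 at chr10:117282273-117282522. Capitals mark the bases that differ between the pair, or face a gap, in a global alignment, and each is written 5′ to 3′.
Lyz1: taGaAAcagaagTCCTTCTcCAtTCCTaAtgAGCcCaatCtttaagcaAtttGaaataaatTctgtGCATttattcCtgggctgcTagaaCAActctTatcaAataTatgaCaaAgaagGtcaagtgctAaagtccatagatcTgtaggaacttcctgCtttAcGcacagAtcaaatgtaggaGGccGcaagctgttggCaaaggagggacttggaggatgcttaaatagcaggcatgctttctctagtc
Lyz2: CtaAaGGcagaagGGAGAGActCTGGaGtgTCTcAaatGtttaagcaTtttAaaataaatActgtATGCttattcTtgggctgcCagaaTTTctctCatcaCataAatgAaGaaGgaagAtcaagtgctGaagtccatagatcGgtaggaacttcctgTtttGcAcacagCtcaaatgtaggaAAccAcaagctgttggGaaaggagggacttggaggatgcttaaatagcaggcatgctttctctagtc
The aligned promoters were identical in 200 of 252 columns (79.4%), with 3 gaps of 4 bases in all, and at 92 of the 100 positions nearest the start, where no gap falls. The longest identical run was 50 bases. Both hold TTAAATA, starting 28 bases before the start (at -28), and that motif, searched on both strands, occurs in 4.37% of 27025 promoters of RefSeq genes. A match describes the letters only.

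The main axis of variation was led at its positive end by immediate-early and keratin genes, and at its negative end by lipid and secretory genes together with Gm42418. The first principal component, computed in each library apart, took 3.24% of the variance of 500 genes in RFP and 3.05% in YFP, with loadings correlated at 0.98 over 392 shared genes. Its positive end held Atf3, Jun and Junb, which encode rapidly induced transcription factors, with S100a6, Areg, Nfkbia, Krt18 and Krt8. Its negative end held Scd1 and Gm42418 first, in either order in the 2 libraries, with Cxcl15, Slc34a2, Lyz2, Fabp5 and Sftpb. Scd1 and Fabp5 serve lipid handling and Cxcl15, Lyz2 and Sftpb are secreted, while Gm42418 is a gene model with no known secretory role that differed between the libraries in Fano factor (5.11 and 15.2). The choice of genes at the ends of a component fixes the signs of their correlations, so only the sizes are given: a median of 0.23 in RFP and 0.22 in YFP over the 28 pairs within the positive end, 0.19 and 0.17 within the negative end, and -0.16 and -0.17 over the 64 pairs between the ends. Cells of the positive end had a lower mitochondrial share (Spearman -0.37 in RFP, -0.36 in YFP), and its part in the axis was not tested. These Spearman correlations are over cells of 1 library, all reduced to the same depth, and carry no p.

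**Figure D4:**
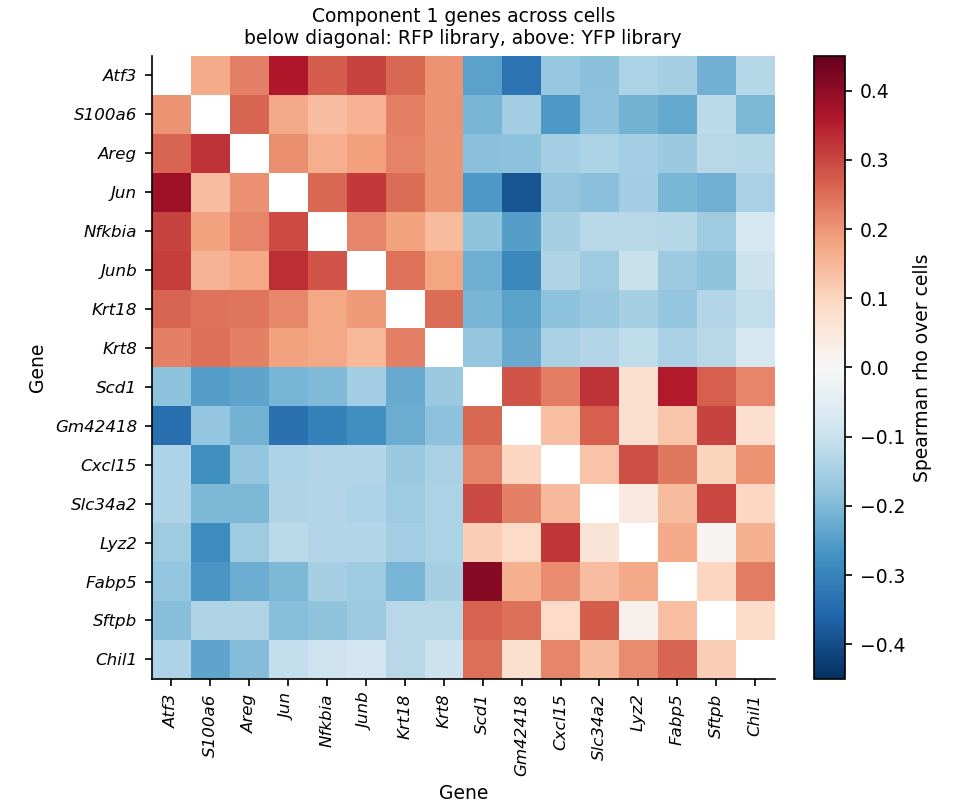
Spearman correlation over cells for each pair of the 16 genes at the ends of the first principal component, shown by colour, with the RFP library below the diagonal and the YFP library above it. Positive blocks for the 8 genes from Atf3 to Krt8 and the 8 from Scd1 to Chil1, and negative blocks between them, follow from how the genes were chosen, and among the deepest blues is that of Gm42418 with Jun (-0.34 and -0.39).

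Summed gene lists were also correlated across cells. Summed UMIs of DATP and immediate-early genes correlated at 0.42 in RFP and 0.45 in YFP, and immediate-early with heat shock genes at 0.41 in both. Sterol and fatty acid synthesis genes opposed the DATP genes (-0.34 in both) and went with the primed AT2 genes (0.28 and 0.26). They hardly went with the surfactant and lamellar body genes (0.07 and 0.08). Scd1, which both of these lists hold, and Sftpc were left out of the sums for that pair. DATP genes had no UMI in 23.6% and 23.3% of cells, while the upper 5% of cells held at least 9. Of single pairs, Chil1, a chitinase-like protein gene, and Lcn2 correlated at 0.42 and 0.38, Fabp5, a fatty acid carrier, and Scd1 at 0.41 and 0.36, and H2-Ab1 and Cd74 at 0.36 and 0.33. Among opposed pairs were Jun and Gm42418 at -0.34 and -0.39, and Lyz2 and Lyz1, at -0.30 in each library.

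Confetti cells were then compared with Red2Kras cells chosen by the same rule, mutant RFP and wildtype YFP cells together. These mutant cells passed the Sftpc limit but need not be in the AT2 state. At the 5th percentile, Sftpc was 1.21% and 0.849% of a cell's UMIs in the 2 weeks RFP libraries. In Confetti RFP and YFP it was 7.50% and 6.57%. Both Confetti libraries were set as 1 side against the 8 Red2Kras libraries by edgeR's quasi-likelihood test on summed counts, over 13626 genes with Benjamini-Hochberg adjustment. Each Confetti colour is a group of 1, so the spread came from the Red2Kras replicate pairs, with 4 residual degrees of freedom, and the Confetti libraries are assumed to vary as those do. The fit also counts all libraries as independent. Same-numbered Red2Kras libraries deviated together, however, and both Confetti colours may come from the same lungs. Its standard errors and p-values may therefore overstate the replication. In all 9 genes passed (0.0661% of those tested), 5 higher and 4 lower in Confetti, and 1568 had an unadjusted p under 0.05. Without either Confetti library 4 passed, and without the second replicate of 2 weeks RFP 5.

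Gpx3, encoding a secreted glutathione peroxidase, stood at 88.3 CPM in Confetti RFP and 88.9 in YFP, and at 0.443 to 5.36 (median 2.23) across Red2Kras. The Confetti level was higher by 5.45 ± 0.37 (SE) on the log2 scale (edgeR, adjusted p = 0.00157). Slc7a8, an amino acid transporter gene, stood at 7.67 and 8.76 against 0 to 0.203, which is 6.53 ± 0.41 higher (edgeR, adjusted p = 0.00133). No Red2Kras library reached the Confetti level of either gene. D930048N14Rik stood at 24.7 and 31.7 against 0.489 to 2.09 (4.58 ± 0.29, edgeR adjusted p = 0.00133). Pdlim4, an actin-associated protein gene, stood at 19.6 and 18.4 against 0.452 to 3.42 (3.97 ± 0.30, edgeR adjusted p = 0.00235), and Pak6, a kinase gene, at 16 and 21.5 against 1.78 to 4.99 (2.51 ± 0.27, edgeR adjusted p = 0.0263). Hmgn3, encoding a nucleosome-binding protein, was lower, at 7.18 and 6.08 against 15.6 to 28.1 (-1.73 ± 0.21, edgeR adjusted p = 0.0476). In GRCm38 3 of the 5 higher genes lie on chromosome 11, which holds 8.17% of the genes tested: D930048N14Rik at chr11:51650954-51657681, Pdlim4 at chr11:54054928-54069014 and Gpx3 at chr11:54902453-54910377.

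The remaining 3 lower genes are Y-linked. Ddx3y and Eif2s3y had no UMI in either Confetti library and 12.9 to 45.1 and 8.28 to 43.2 CPM in each Red2Kras library. Against the floor of 3 counts over both Confetti libraries they were at least 317-fold and 252-fold lower. Uty had 1 UMI over both. Xist, transcribed from the inactive X of female cells, stood at 655 and 595 in Confetti, at 86.1 to 539 in the first replicates of Red2Kras and under 0.35 in the second replicates. Sex and genotype of the pooled mice therefore cannot be told apart in this comparison.

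**Figure D5:**
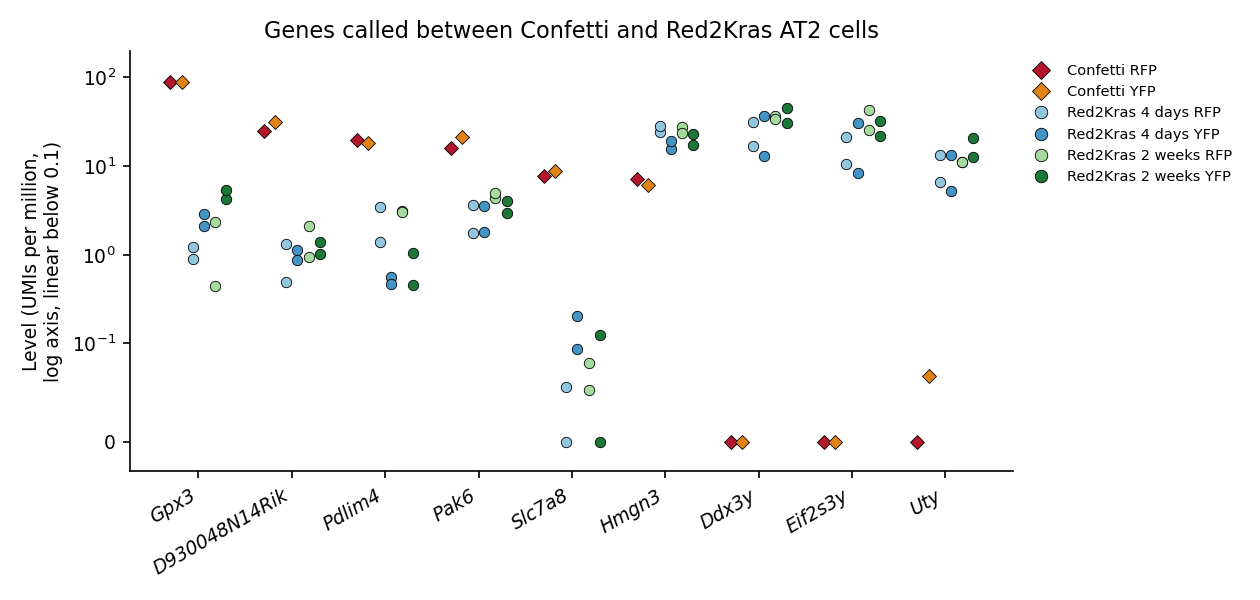
Levels in CPM (UMIs per 1000000) of the 9 genes called between Confetti and Red2Kras cells chosen by the same rule, with 1 point for each of the 10 libraries, on an axis that is logarithmic above 0.1 and linear below it. The Confetti diamonds lie above all Red2Kras circles for Slc7a8, Gpx3, D930048N14Rik, Pdlim4 and Pak6, and below them for Hmgn3 and the Y-linked genes.

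The replicate numbers of Red2Kras pair its libraries, and the count of calls turned on how the Confetti libraries were placed among them. The study's methods spread the libraries over 2 days, and the sources used here do not say on which day the Confetti libraries were made. With the numbers as a block and the Confetti libraries set midway between them, 585 genes passed (4.29%), 364 higher (2.67%) and 221 lower (1.62%) in Confetti. With the Confetti libraries set with the first replicates, 16 passed (0.117%), all of them among the 585. Both fits called the 9 genes above. Groups that do not overlap were seen for 1652 genes (12.1%). The Confetti level of Lcn2 was nearer to the first replicates at 4 days. It stood at 2123 and 1855 CPM in Confetti, 2360 and 2022 in those replicates, and 6968 and 7163 in the second. At 2 weeks this split was not seen in the summed primed AT2 genes, which Lcn2 leads. They stood at 10629 (RFP) and 10068 (YFP) in the first replicates and 8082 and 11309 in the second, against 3817 and 3349 in Confetti. No label says what the replicate numbers stand for, and Xist, given above, split by them as well. Day, sex and genotype therefore cannot be told apart for the genes that passed only in the first of these fits.

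Of the antioxidant and detoxification genes, Gpx3 passed with and without the block and Pon1, a paraoxonase, in both blocked fits. Pon1 stood at 108 and 79.8 CPM in Confetti and 0.523 to 42.8 in Red2Kras, a difference of 3.02 ± 0.37 with the Confetti libraries set with the first replicates (edgeR adjusted p = 0.0433, 0.299 without the block). Of the 28 tested members 8 passed with the Confetti libraries midway, all higher, against 2.67% of all genes called higher. Of those 8, 1 is the naming marker Cbr2. With the Confetti libraries set with the first replicates 2 members passed. Cyp2b10, a cytochrome P450, differed by 2.81 ± 0.51 in the latter fit (edgeR adjusted p = 0.172) and catalase, Cat, by 0.72 ± 0.17 (edgeR adjusted p = 0.254).

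Pdpn, an AT1 gene, and the chaperone gene Hspa1b were lower in Confetti in both blocked fits. Pdpn stood at 1.29 and 1.81 CPM in Confetti against 3.39 to 85.7, a difference of -2.55 ± 0.31 with the Confetti libraries set with the first replicates (edgeR adjusted p = 0.0433, 0.182 without the block). Hspa1b stood at 118 and 115, within the Red2Kras range of 66.4 to 1844, and differed by -2.56 ± 0.21 (edgeR adjusted p = 0.00623, 0.449 without the block). Id3, encoding an inhibitor of helix-loop-helix factors, stood at 29.3 and 32.5 against 57.0 to 214 and differed by -1.47 ± 0.18 (edgeR adjusted p = 0.0433, 0.211 without the block).

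Other lists gave calls only with the Confetti libraries midway. The DATP list had a median of -1.0 without the block. Of its 14 genes 5 passed with the Confetti libraries midway, all lower, against 1.62% of all genes called lower. With the Confetti libraries set with the first replicates 0 passed. Krt18 stood at 307 and 276 CPM against 315 to 1622 and differed by -0.91 ± 0.23 in the latter fit (edgeR adjusted p = 0.293). Areg, the EGFR ligand, stood at 138 and 107 against 134 to 688, its RFP value inside the Red2Kras range. Of 14 Wnt target and AT2 subset genes 4 passed with the Confetti libraries midway, all higher, against 2.67% of all genes called higher. In the other blocked fit 0 passed. Axin2 stood at 12.1 and 14.2 against 2.01 to 12.2, and differed by 0.59 ± 0.19 (edgeR adjusted p = 0.370). The naming markers Cst8, Cbr2 and Chia1 behaved likewise, with adjusted p values in edgeR of 0.183, 0.424 and 0.414, and so did Lyz1, at 0.494.

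Of the primed AT2 genes 0 of 12 passed in any of these edgeR fits, with 4 at an unadjusted p under 0.05 without the block, against 11.5% of all genes. Lcn2 reached 7330 in Red2Kras and differed by -1.47 ± 0.57 (edgeR adjusted p = 0.429). Of interferon response genes 0 of 17 passed, 10 of them at an unadjusted p under 0.05, with a list median of -1.83. Sftpc itself differed by -0.31 ± 0.27 (edgeR adjusted p = 0.613), and its level was part of the rule.

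Narrower comparisons asked whether Confetti cells differ from the wildtype YFP cells that share a lung with mutant cells. These comparisons use the same Confetti libraries as the one above. Against 2 weeks YFP 5 genes passed (0.0367%) and 872 had an unadjusted p under 0.05. Pdlim4, D930048N14Rik and Slc7a8 were higher, and Ddx3y and Uty lower. With the block 31 passed (0.228%), and 10 (0.0734%) with the Confetti libraries set with the first replicates. Both blocked fits called Id3, Hspa1a and Hspa1b lower, with log2 differences of -2.20, -3.46 and -3.86 in the latter. Against 4 days YFP 3 genes passed (0.022%), Pdlim4, D930048N14Rik and Ddx3y, with 292 at an unadjusted p under 0.05, 8 with the block (0.0587%) and 5 (0.0367%) with the Confetti libraries set with the first replicates. Without either Confetti library, or without either 2 weeks YFP library, 0 passed in both narrower comparisons by edgeR. DATP genes had 0 of 14 members passing in either narrower comparison, with list medians of -0.87 at 2 weeks and -0.14 at 4 days. Interferon response genes had 0 of 17 passing in either, with list medians of -2.21 and -2.11. In each comparison 12 of these 17 had an unadjusted p under 0.05 by edgeR, against 872 and 292 of all 13626 genes. Without either 2 weeks RFP library 3 passed against 2 weeks YFP, and without the second replicate of 4 days YFP 1 passed against 4 days YFP. Whether the 2 times differ was not tested.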

How the data were processed

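Single-cell 3′ RNA libraries (10x) of FACS-sorted lung cells were read from deposited filtered matrices of UMI counts (gene by barcode). Alignment to GRCm38 and counting were done by the authors in Cell Ranger. The submitters' processing notes name Cell Ranger 3.1.0, FastQC 0.11.3 and MultiQC 1.8. The 7554 cells were kept by the limits in the opening and their counts summed per library, 15692104 UMIs in Confetti RFP and 13289562 in Confetti YFP. Groups came from the sample labels. Sums were compared over 10 libraries and 6 groups with edgeR 4.0.16 in R 4.3.3 (TMM, low-count filter, quasi-likelihood test, Benjamini-Hochberg adjustment at 0.05), with the mean of both Confetti groups set against the Red2Kras groups. P-values measure only the spread between these pooled samples. DESeq2 1.42.0 was an alternative. Cells were thinned to 2000 UMIs, without replacement, with numpy 2.4.6 for variation, and those with fewer were left out. Doublets were scored with Scrublet in scanpy 1.11.5 and removed only as an alternative. Replicate numbers in the Red2Kras titles were taken to pair libraries, since same-numbered libraries deviated together for every pair of groups (correlation 0.59, 0.17, 0.23, 0.14, 0.21 and 0.47). That pairing comes from the data, as no label states a shared animal or day. The Confetti libraries, whose labels carry no number, were coded midway in the block, and in an alternative chosen after seeing the data with replicate 1. Promoters were aligned globally with Biopython. The code was tested on simulated data.

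The members, gene lists and tests were chosen with earlier results of these data known. Genes were named by a rule: the 5 markers, the most abundant genes, leading members of the 21 lists and any that passed, genes called in a comparison, the most variable genes, component ends, the extremes of the colour ratio, and Il1r1, Axin2, Tm4sf1, Lcn2, Lrg1 and Nfkbia. Chosen after their values were seen were the Lyz1 limit, the gene pairs, Krt19, Xist and the statistics on low-Sftpc barcodes with Ptprc. Promoters are from RefSeq, which had an entry for 67 of the 94 variable genes. Alternatives covered the filters, normalization, tool, thinning depth, replicate block and left-out libraries.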

Additional observations from a re-analysis of the deposited data

How the results depend on the processing

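The counts of genes called depended strongly on the processing. For Confetti against Red2Kras, 2 weeks YFP and 4 days YFP in turn, where 9, 5 and 3 genes passed, no filter on low counts gave 876, 534 and 163, the replicate block 585, 31 and 8, that block with the Confetti libraries set with replicate 1 16, 10 and 5, and DESeq2 167, 62 and 10. Adding the discarded barcodes that passed the quality limits gave 2, 0 and 0. This alternative and the placing of Confetti with replicate 1 were chosen after seeing the data. An Sftpc minimum of 10 UMIs gave 3 against 2 weeks YFP, and thinning before the rule gave 6 against 4 days YFP. Leaving out 1 library gave 4 to 13, 0 to 7 and 0 to 4. A smaller set of samples estimates the spread in these last fits, and the cause of the other changes was not tested. Variable genes numbered 49 at a Fano factor of at least 2 and 51 with cells thinned to 1000 UMIs, and 88 to 133 under the other alternatives. With cells thinned to 2000 UMIs, shares of cells with a UMI in RFP and YFP were 3.83% and 3.72% for Il1r1, 2.54% and 3.07% for Axin2, 86.7% and 86.7% for Lcn2, 41.8% and 43.9% for Lrg1, 26.8% and 28.0% for Nfkbia, and 0.234% for Tm4sf1 in YFP, as fewer UMIs per cell give fewer detections. For the 10 genes with the smallest p in each comparison there were 660 alternative values. Of these 0 changed direction, 502 kept their side of the threshold, 61 gained a call and 97 lost one. Genes picked by a small p tend to keep their direction, so this count does not cover the other named genes. Against 4 days YFP, Lyz2 differed by 0.25 in the main fit and -0.04 with Confetti set with replicate 1, and Nfkbia by 0.17 and -0.29. Depth limits genes such as Il1r1 and Tm4sf1, and 1 library per Confetti colour leaves no replicate check between colours.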

Other observations

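Smaller axes and gene groups of the Confetti AT2 cells were also measured. The second principal component set ribosomal protein genes against others and had loadings correlated at 0.86 between the libraries. At its other end stood Jun, Atf3 and Fos in RFP, and Sftpb, Muc1 and Malat1 in YFP, so only its ribosomal end was led by the same gene family. The third (0.83) ran from S100a6 and Lgals3, encoding galectin 3, to Bex2 and Nupr1, a stress-response gene, in both libraries. Genes of the interferon response were seldom seen: the summed list had no UMI in 76.4% of RFP and 74.7% of YFP cells reduced to 2000 UMIs, with at most 14 and 32 UMIs in any cell. Heat shock genes, by contrast, had no UMI in only 1.51% and 1.69% of cells.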
